A study of Homo sapiens with 4 samples.

Results

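The genes described are 9 that act on N6-methyladenosine (m6A) in RNA: the 5 YTH-domain readers YTHDF1, YTHDF2, YTHDF3, YTHDC1 and YTHDC2, the demethylases FTO and ALKBH5, and the readers FMR1 and PRRC2A. They were chosen by name, and all 9 were found among the 58302 Ensembl genes listed. PolyA RNA was profiled in 4 RNA-seq libraries of T24, a human line established from a urothelial carcinoma of the bladder. Of these libraries, 2 are labelled control and 2 are labelled IGF2BP3 knockout, and no other treatment, time or genotype is given. The knockout is a stable T24 line made with CRISPR/Cas9, and the labels do not say whether its libraries, or those of the control, came from separate clones or cultures. The p-values therefore speak only for these libraries, whose spread may be technical. They rest on the spread of genes of like level and not on each gene's own replicates.

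Adenosine methylation is placed on messenger RNA in the nucleus by a methyltransferase complex built around METTL3 and METTL14, and FTO and ALKBH5 can remove it. Proteins called readers bind the mark and steer the transcript: YTH-domain proteins hold the methyl group in an aromatic pocket, YTHDC1 acts mainly in the nucleus, and YTHDF1, YTHDF2 and YTHDF3 act in the cytoplasm on decay and translation. IGF2BP3 belongs to another reader family, whose members are known to stabilise their target RNAs. The comparison asks whether RNA of the other readers and of the demethylases differed when IGF2BP3 was lost.

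The 3 YTHDF genes are close paralogs, so it matters whether short reads can tell them apart. In their coding sequences (GENCODE 29), YTHDF1 and YTHDF2 were identical at 69.3% of aligned bases, YTHDF1 and YTHDF3 at 70.5%, and YTHDF2 and YTHDF3 at 72.0%. The longest run of identical bases between YTHDF1 and YTHDF2 was 20 bases, and it was 17 bases for each pair with YTHDF3. That YTHDF1 and YTHDF2 run lies in the stretch that encodes the start of the YTH domain. It is shown in capitals with 20 bases on either side, 5′ to 3′ on the coding strand, to show how soon the paralogs diverge around it.
YTHDF1: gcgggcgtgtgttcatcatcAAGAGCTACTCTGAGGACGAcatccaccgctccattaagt
YTHDF2: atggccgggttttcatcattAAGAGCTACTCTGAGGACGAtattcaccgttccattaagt
The YTHDF1 window is chr20:63202718-63202777 on the minus strand and the YTHDF2 window chr1:28743496-28743555 on the plus strand (hg38), each within 1 coding exon. No 50-base window of the longest coding transcript of YTHDF1, YTHDF3, YTHDC1, YTHDC2 or FMR1 occurred in a transcript of another gene, on either strand. For YTHDF2, 12.2% of its windows also occurred in the processed pseudogene YTHDF2P1, which was listed at 0 in all 4 libraries. How the counting treated reads of such windows is not given in the sources used here. For FTO, 0.546% of the windows were shared with other genes in the same sense and 1.11% in antisense, for ALKBH5 11.4% in antisense, and for PRRC2A 0.0731% in the same sense.

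Annotation bears on several of these values. ALKBH5 shares 357 exonic bases with AC087164.1, a gene on the opposite strand that was listed at 0 in all 4 libraries, and FTO shares 180 with the opposite-strand pseudogene AC007347.2, also at 0 throughout. The strand setting of the counting is not given in the sources used here, so reads from such pairs cannot be told apart. Each FPKM uses as length the longest annotated transcript of the gene, which for YTHDC2 (6708 bases, 3 exons) and FMR1 (4830 bases) is a retained-intron transcript. Divided by the longest protein-coding transcript instead (6316 bases with 30 exons, and 4333 bases with 16), the levels of YTHDC2 and FMR1 would be 1.06 and 1.11 times as high. FTO was divided by 11766 bases, the longest of the 9, so its level is understated if shorter transcripts made up most of its RNA.

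FPKM divides a gene's reads by the length of its transcript and by the reads of the library, which puts genes and libraries on a common scale. It does not adjust for the make-up of a library: scaling to equal upper quartiles would divide the libraries by 0.844 to 1.24. Comparison between genes depends on the transcript length used. Whole reads could be recovered from the values, and the libraries rested on 2162179 and 1870884 reads for control 1 and control 2 and on 811823 and 1240207 for knockout 1 and knockout 2. The libraries of a group differed widely: Pearson's r of log2 values across the 11463 genes tested was 0.49 for the control pair and 0.43 for the knockout pair (a description, since genes are not independent of each other). The targeted gene, IGF2BP3, stood at FPKM 2.94 and 21.5 in control libraries (27 and 171 reads) against 0 and 0.190 in knockout libraries (0 and 1 read), so its RNA goes with the labels. Of 13 epithelial and urothelial markers, KRT8 and KRT18 were above 0 in all 4 libraries, while 9, among them EPCAM, KRT19 and the uroplakin genes, were at 0 in all. Their summed FPKM, nearly all from KRT8 and KRT18, was 440 and 575 in control libraries and 1499 and 1163 in knockout libraries, and its part in the results was not tested. Markers of leukocytes (8) and red cells (5) were at 0 throughout, and those of fibroblasts (6) and endothelium (5) summed to 0 to 14.9 and 0 to 2.72 FPKM.

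No difference between knockout and control passed the test for any of the 9 genes. In limma, which was fitted over the 11463 genes whose FPKM averaged 1 or more, 0 of the 9 passed an adjusted p of 0.05 (Benjamini-Hochberg) and 0 had an unadjusted p under 0.05. Over all genes tested, 10 passed, or 0.0872%, and 3.91% had an unadjusted p under 0.05. The adjusted p of the 9 lay between 0.955 and 0.996. With limma-voom on the recovered reads 0 passed as well. All 9 passed the filter on low values. The fitted log2 fold change, knockout against control on log2(FPKM + 0.5), was above 0 for 5 and below 0 for 4, with a median of 0.28, against 48.2% of all genes above 0 and a median of −0.08. For 7 of the 9 it was smaller than its standard error, which limma took from genes of like level and not from the gene's own replicates. With 2 libraries against 2, an exact two-sided permutation test of a single gene cannot give a p below 0.333. IGF2BP3, the targeted gene, did not pass either, with a log2 fold change of −3.89 ± 2.83 (SE) and adjusted p = 0.955 in limma. Not passing here is therefore no sign that a gene was unchanged.

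Control and knockout values separated completely for 3 of the 9 genes (33.3%), against 26.5% of all genes tested. These shares are not like for like, since groups tied at 0 cannot separate. At least 1 library was at 0 for 49.4% of all genes tested, but for 1 of the 9. Without ties, random order alone separates 2 libraries from 2 others with a probability of 0.333. YTHDC2 and FMR1 were higher in both knockouts than in both controls, an order found for 12.1% of genes, and YTHDF3 was lower in both, as were 14.4%. YTHDC2, FMR1, YTHDF3 and YTHDF1 kept the sign of their fitted difference whichever library was left out, and for the other 5 genes the sign turned.

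**Figure D1:**
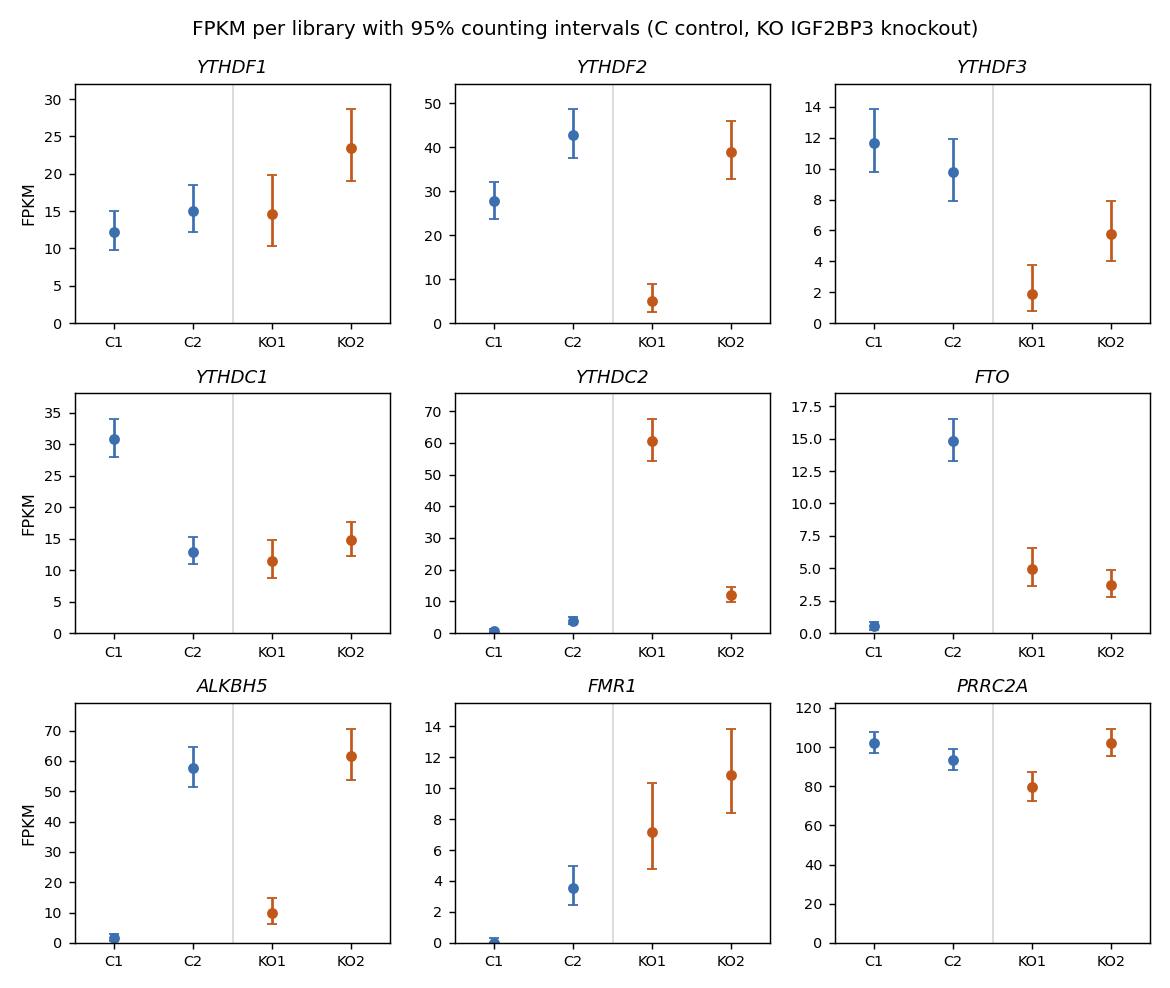
FPKM (y axis, each panel on its own scale from 0) of the 9 genes in control libraries C1 and C2 (blue) and IGF2BP3 knockout libraries KO1 and KO2 (orange); bars are exact 95% intervals from the recovered reads, drawn up to 3 reads for a library at 0, and cover counting error only. PRRC2A stays between 79.5 and 102 in all 4 libraries, while the controls of ALKBH5 stand at 1.51 and 57.8.

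Of the cytoplasmic YTHDF readers none passed, and YTHDF3 was the 1 whose groups separated. YTHDF1 (ENSG00000149658, chr20:63195429-63216234, minus strand), which has been tied to translation of methylated transcripts, had FPKM of 12.2 and 15.1 in control libraries and 14.6 and 23.4 in knockout libraries, from 87, 93, 39 and 96 reads. The groups overlapped, since knockout 1 lay between the controls. Its log2 fold change was 0.43 ± 1.49 (SE, n = 2 and 2), with a 95% interval from −2.49 to 3.36, and stayed between 0.10 and 0.77 with 1 library left out.

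YTHDF2 (ENSG00000198492, chr1:28736621-28769775, plus strand) recruits the CCR4-NOT deadenylase and so shortens the life of methylated RNAs. Its FPKM was 27.7 and 42.8 in control libraries and 5.05 and 38.9 in knockout libraries, from 175, 234, 12 and 141 reads. Knockout 1 was low and knockout 2 lay between the controls. The log2 fold change of −1.24 ± 1.30 (SE, 95% interval −3.79 to 1.32) rested on knockout 1: without that library it was 0.17, and without knockout 2 it was −2.65. On counting error alone, the exact interval of knockout 1 ended at an FPKM of 8.83 and that of knockout 2 began at 32.7.

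YTHDF3 (ENSG00000185728, chromosome 8, plus strand) works with both of the other YTHDF proteins. It had FPKM of 11.7 and 9.78 in control libraries and 1.90 and 5.74 in knockout libraries, from 131, 95, 8 and 37 reads. Both knockouts lay below both controls. The log2 fold change of −1.53 ± 2.21 (SE, 95% interval −5.85 to 2.79) did not pass (adjusted p = 0.955 in limma), and it lay between −2.22 and −0.84 with 1 library left out. The controls differed by no more than counting error, whereas the exact intervals of the knockouts, 0.819 to 3.74 and 4.05 to 7.92, did not meet.

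Summed over the 3 YTHDF genes, FPKM was 51.5 and 67.6 in control libraries and 21.5 and 68.1 in knockout libraries, so knockout 1 stood apart and knockout 2 was level with control 2. YTHDF2 made up 53.7% and 63.3% of that sum in control libraries and 57.1% in knockout 2, but 23.5% in knockout 1, where YTHDF1 made up 67.7%. YTHDF3 contributed 22.6% and 14.5% in control libraries against 8.82% and 8.44% in knockout libraries.

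**Figure D2:**
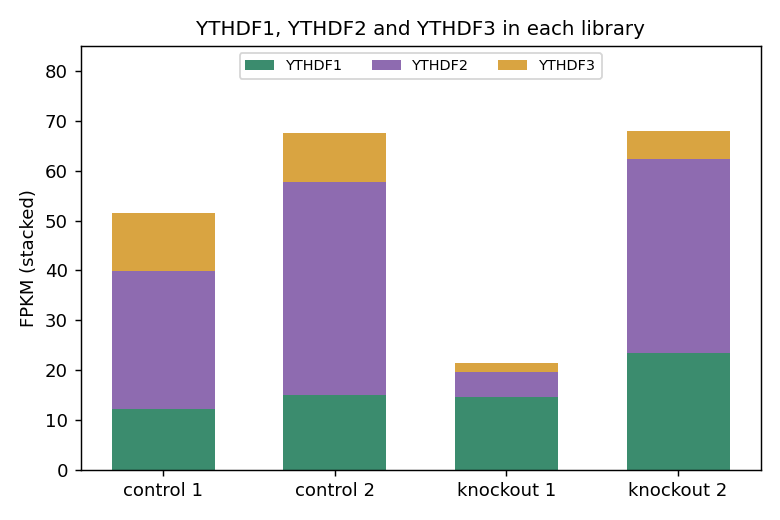
FPKM of YTHDF1, YTHDF2 and YTHDF3 stacked for each library (y axis from 0). The sum is 51.5, 67.6, 21.5 and 68.1 from left to right, and YTHDF2 is the largest part in every library except knockout 1.

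Of the other YTH proteins, YTHDC1 (ENSG00000083896, chr4:68310387-68350089, minus strand) binds m6A in the nucleus and is known for roles in splicing and export. Its FPKM was 30.9 and 12.95 in control libraries and 11.5 and 14.7 in knockout libraries, from 416, 151, 58 and 114 reads. Control 1 was high and the other 3 libraries lay close together. The log2 fold change was −0.60 ± 1.48 (SE, 95% interval −3.51 to 2.30), and without control 1 it was 0.0060.

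YTHDC2 (ENSG00000047188, chr5:113513683-113595285, plus strand), a helicase with a YTH domain that is best known from meiosis, had the largest fitted difference of the 9 in limma with all 4 libraries; that of FMR1 was larger in limma-voom, and those of FMR1 and ALKBH5 were larger without knockout 1. FPKM was 0.758 and 3.82 in control libraries and 60.6 and 12.02 in knockout libraries, from 11, 48, 330 and 100 reads. Both knockouts were above both controls, and the exact counting intervals of the 4 libraries did not overlap one another. The log2 fold change of 3.57 ± 2.03 (SE, 95% interval −0.41 to 7.54) had an unadjusted p of 0.0785 and an adjusted p of 0.955 in limma. Left-out fits gave 2.42 without knockout 1 and 4.71 without knockout 2, and limma-voom on the reads gave 3.74 (adjusted p = 0.994). Between libraries of the same group YTHDC2 differed by 1.78 (controls) and 2.29 (knockouts) on the log2 scale.

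The demethylases varied more between the controls than between the groups. FTO (ENSG00000140718, chr16:53701692-54158512, plus strand), a dioxygenase that acts on m6A and on the related cap mark, had FPKM of 0.511 and 14.8 in control libraries and 4.92 and 3.70 in knockout libraries, from 13, 326, 47 and 54 reads. Both knockouts lay between the controls. The log2 fold change of 0.28 ± 2.56 (SE, 95% interval −4.75 to 5.30) was −1.68 without control 1 and 2.24 without control 2.

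ALKBH5 (ENSG00000091542, chr17:18183078-18209954, plus strand), a nuclear m6A demethylase, had FPKM of 1.51 and 57.8 in control libraries and 9.86 and 61.6 in knockout libraries, from 9, 297, 22 and 210 reads. Control 1 and knockout 1 were low and the other library of each group was high. The controls differed by 4.85 on the log2 scale and the knockouts by 2.58, against a log2 fold change between groups of 1.23 ± 1.48 (SE, 95% interval −1.68 to 4.14). This fold was −1.20 without control 1, −0.064 without knockout 2 and 3.65 without control 2. ALKBH5 stood above FTO in all 4 libraries on the FPKM scale, by 2.96 and 3.90 times in control libraries and 2.004 and 16.7 times in knockout libraries. These ratios lean on length, since FTO was divided by 11766 bases and ALKBH5 by 2748. In reads FTO stood above ALKBH5 in control 1, control 2 and knockout 1, and below it in knockout 2.

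Both remaining readers lack a YTH domain. FMR1 (ENSG00000102081, chrX:147911951-147951125, plus strand) encodes FMRP, an RNA-binding protein that restrains translation. No read was seen in control 1, which on counting error alone allows an FPKM of up to 0.287 (3 reads, a set limit and not an exact interval). Control 1 also had fewer genes above 0 than control 2 (8856 against 11433), and the part of this in the empty value was not tested. FPKM was 3.54 in control 2 and 7.14 and 10.9 in knockout libraries, from 32, 28 and 65 reads. The knockouts were above both controls and differed from each other by no more than counting error. The log2 fold change of 2.71 ± 2.69 (SE, 95% interval −2.55 to 7.98, adjusted p = 0.955 in limma) depended on the empty control: it was 1.20 without control 1, 4.22 without control 2, and 4.47 in limma-voom.

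PRRC2A (ENSG00000204469, chr6:31620720-31637771, plus strand), a large proline-rich protein that binds methylated RNA, was the most abundant and the most even of the 9. Its FPKM was 102.3 and 93.4 in control libraries and 79.5 and 102.2 in knockout libraries, from 1524, 1204, 445 and 874 reads. Knockout 1 was lowest and the groups overlapped. The highest library was 1.29 times the lowest, and the log2 fold change of −0.12 ± 0.75 (SE, 95% interval −1.59 to 1.36) lay between −0.30 and 0.065 with 1 library left out. That interval, set by the spread of genes of like level, still allows a change of more than 1 in either direction on the log2 scale. The gene's own libraries differed by 0.13 (controls) and 0.36 (knockouts) on that scale.

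**Figure D3:**
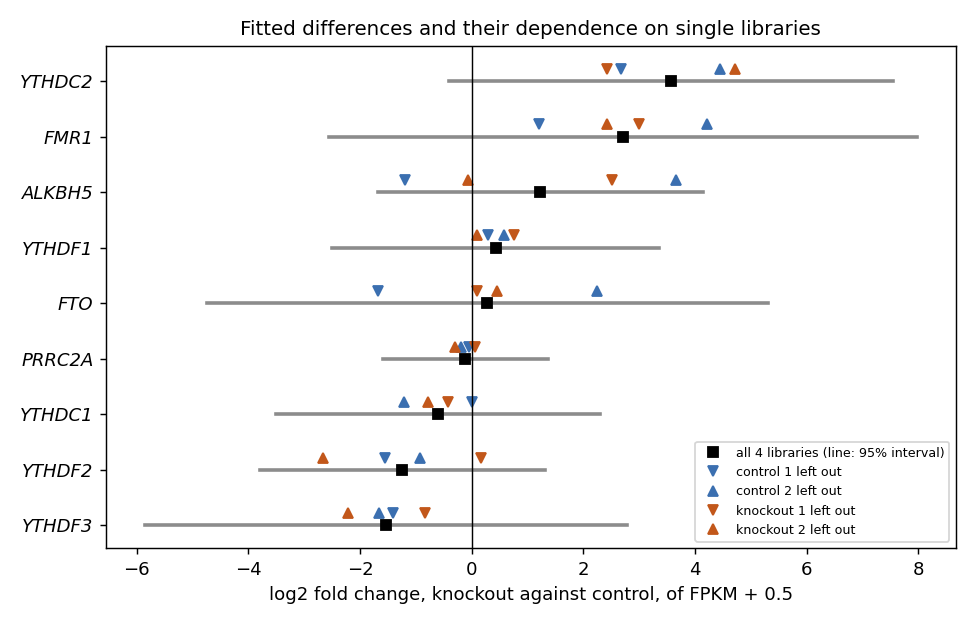
Fitted log2 fold change of FPKM + 0.5, knockout against control (x axis), for the 9 genes (black squares, all 4 libraries) with 95% intervals from limma (grey lines); triangles above each line give the value with 1 library left out. Every interval spans 0, and the triangles of ALKBH5 run from −1.20 to 3.65.

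Ranked by median FPKM over the 4 libraries, the order was PRRC2A (97.8), ALKBH5 (33.8), YTHDF2 (33.3), YTHDF1 (14.8), YTHDC1 (13.9), YTHDC2 (7.92), YTHDF3 (7.76), FMR1 (5.34) and FTO (4.31). PRRC2A was first in each library, and its lowest value, 79.5, exceeded the highest of any other member, 61.6. All other neighbours in the order had ranges that overlapped, so their order is not separated from the spread between libraries. YTHDC2 moved furthest, from place 8 in control 2 to place 2 in knockout 1.

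Libraries of the same group also differed. The median absolute log2 difference over the 9 genes was 1.22 between the controls, 0.67 between the knockouts and 1.23 between the group means, where over all genes tested it was 1.60, 1.89 and 1.38. Exact counting intervals of the 2 controls did not meet for 6 of the 9 genes, and those of the 2 knockouts for 5. Libraries of a group thus often differed by more than the counting of independent reads would give. Duplicate reads, whose removal is not given, would make these intervals too narrow. Control 1 held the lowest value for YTHDF1, YTHDC2, FTO, ALKBH5 and FMR1, and knockout 1 for YTHDF2, YTHDF3, YTHDC1 and PRRC2A. Control 1 was the deepest library and knockout 1 the shallowest. Genes above 0 numbered 8856 in control 1, 11433 in control 2, 7827 in knockout 1 and 11127 in knockout 2. Over all genes tested, control 1 was lowest alone for 2759, control 2 for 1004, knockout 1 for 3323 and knockout 2 for 1261 of 11463. FMR1 was the 1 gene of the 9 with a library at 0, where 49.4% of all genes tested had at least 1. In bulk RNA, fewer cells with a transcript and less of it per cell cannot be told apart.

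The rest of the pathway was read from lists of 74 other genes, of which 68 were tested. None passed in limma, and 1, POP7, had an unadjusted p under 0.05. Higher values in the knockout were fitted for 37 and lower for 31, with a median log2 fold change of 0.05 against −0.08 over all genes, and the groups separated for 17 of the 68 (25.0%, against 26.5% of all genes tested), the targeted IGF2BP3 among them. Of the 68, 17 had a library at 0, against 49.4% of all genes tested, so these shares are not like for like either. Among the 68 genes 9 were at 0 in control 1, 1 in control 2, 10 in knockout 1 and 3 in knockout 2.

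Methyltransferase complex genes, which write the mark, were fitted higher for 6 of 8, with a median of 0.25 and no separation of the groups. CBLL1, the adaptor also known as HAKAI, had FPKM of 0.209 and 1.93 in control libraries against 0 and 21.1 in knockout libraries. RBM15, which guides the complex to its targets, had 26.2 and 33.6 against 2.03 and 43.5. In both genes knockout 1 and knockout 2 lay far apart. Of the other enzymes that make this mark, METTL5, which methylates ribosomal RNA, had 4.05 and 46.4 against 113 and 33.5, and METTL16 had 26.6 and 1.78 against 24.8 and 0.282.

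Other m6A-binding proteins were fitted higher for 7 of 12, with a median of 0.39, and IGF2BP3 was the lowest of them. FXR1, a paralog of FMR1, had FPKM of 3.72 and 26.1 in control libraries against 64.6 and 14.6 in knockout libraries, a fitted log2 difference of 1.57 ± 1.43 (SE) that was 0.24 without control 1 and 2.90 without control 2. Of 8 genes for proteins that bind FMRP, 5 were fitted higher (median 0.23), and the lowest was NUFIP2, at 26.1 and 21.2 against 12.4 and 5.28. The PRRC2A paralogs split, with PRRC2C at 24.3 and 51.3 against 85.0 and 65.7 and PRRC2B at 45.8 and 55.5 against 19.5 and 70.2.

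Genes of the decay machinery that YTHDF2 and YTHDC2 engage showed no direction shared by all their lists. Of 11 CCR4-NOT genes, 7 were fitted higher (median 0.04). CNOT6, a deadenylase, had FPKM of 3.74 and 8.14 in control libraries against 58.6 and 20.5 in knockout libraries, and CNOT9 had 25.9 and 24.2 against 1.21 and 17.99. The groups did not overlap for these 2 of the 11 genes, against 26.5% of all genes tested. Both were named as the highest and lowest fold of their list, a choice that favours separation. Decapping, 5′ decay and nonsense-mediated decay genes were fitted higher for 3 of 8 (median −0.70). The groups separated for 3 of the 8, DCP2 and XRN1 among them, all with knockouts below, an order found for 14.4% of all genes tested. DCP2, the decapping enzyme, had 20.1 and 12.1 against 3.99 and 1.71, a fitted log2 difference of −2.35 ± 2.13 (SE), and DCP1B was at 0 in every library except knockout 1, at 8.28. Protein subunits of RNase P and MRP, endonucleases linked to YTHDF2, were fitted higher for 3 of 6 (median 0.51). POP7 had 236 and 36.3 against 0 and 20.01, with an adjusted p of 0.316 in limma, and POP5 had 0 and 28.7 against 74.2 and 13.2.

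Nuclear partners of YTHDC1 were fitted higher for 3 of 7 (median −0.09). SRSF10, a splicing factor, had FPKM of 11.3 and 10.8 in control libraries against 25.8 and 18.5 in knockout libraries, and NXF1, the export receptor of messenger RNA, had 90.4 and 10.7 against 10.1 and 13.5. Relatives of ALKBH5 in the AlkB family were fitted higher for 3 of 6 (median −0.55). ALKBH8, which modifies transfer RNA, had 0 and 5.63 against 61.6 and 11.5, and ALKBH4 had 1.98 and 2.29 against 0 in both knockouts, from 9 reads in each control. None of these genes passed.

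**Figure D4:**
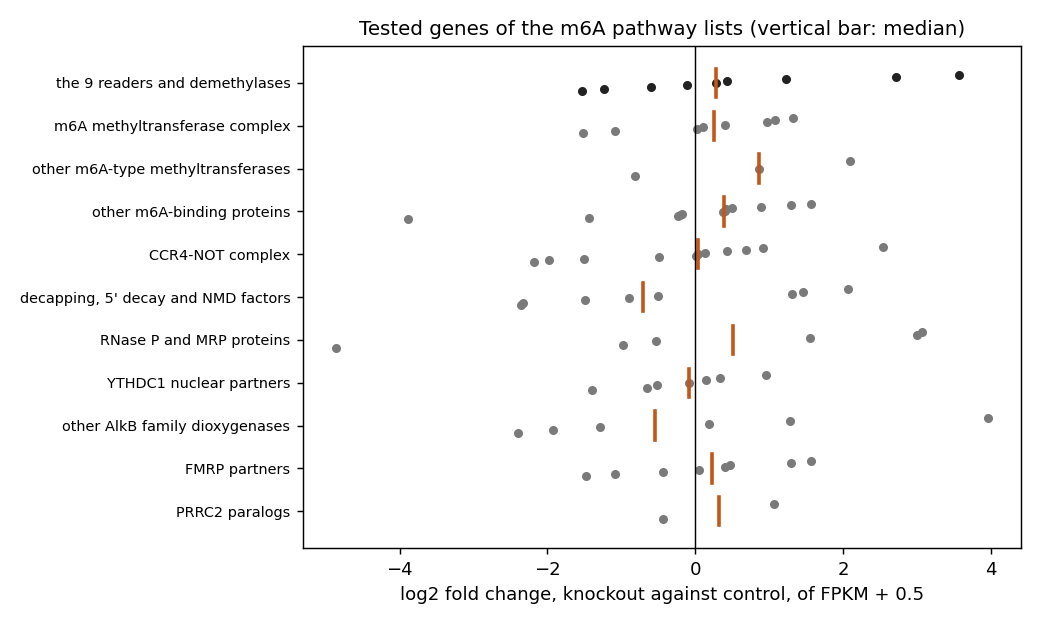
Fitted log2 fold change of FPKM + 0.5, knockout against control (x axis), for the 9 genes (black) and for the tested genes of each pathway list (grey, 1 point per gene), with the median of each list as a vertical bar. Medians lie between −0.70 and 0.87, and each list has points on either side of 0.

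Likeness was measured as the mean absolute difference of log2(FPKM + 0.5) over the 4 libraries, a description of level and pattern together. Among the 9, YTHDF1 and YTHDC1 were nearest each other, at 0.62, and YTHDC2 and FMR1 were nearest each other at 1.14. Of the pathway genes, ALKBH8 was nearest to YTHDC2 (0.48), CYFIP1 to YTHDF2 (0.35), IGF2BP1 to YTHDF1 (0.36), XRN1 to YTHDF3 (0.63) and KHDRBS1 to PRRC2A (0.22). ELAVL1 was nearest to YTHDC1 (0.43), CNOT3 to ALKBH5 (0.86), and EDC3 to both FTO (0.67) and FMR1 (0.70). Each pathway gene named was picked as the nearest of 74, over only 4 libraries. From 11 (YTHDC2) to 167 (FMR1) of the 11463 tested genes were at least as near as the gene named, so such nearness is not particular to the pathway.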

How the data were processed

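For each library the authors deposited FPKM values of 58302 Ensembl genes, counted with HTSeq per the file names. The submitters' processing notes name hg38 as the build. Aligner, annotation release, strand setting, read length and duplicate removal: not given in the sources used here. Libraries followed the TruSeq protocol on polyA RNA, per the labels' protocols.

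Names, positions and transcript lengths came from GENCODE 29 (hg38), which matched 58039 genes. FPKM multiplied by the longest transcript's length gave whole multiples of 1 read for 96.5 to 96.7% of genes above 0 (tolerance 0.0001), from which library totals and reads were taken. Exact 95% Poisson intervals cover counting error only and treat each read as an independent molecule. Amplified reads are not independent molecules, so the intervals may be too narrow even for counting error.

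Knockout was compared with control in limma 3.58.1 (R 4.3.3; lmFit, eBayes with trend) on log2(FPKM + 0.5) for genes averaging an FPKM of 1 or more, two-sided, Benjamini-Hochberg over all genes, threshold 0.05. This scale understates changes of low genes. The fit was run on simulated counts whose spread between replicates was set in advance and not matched to these libraries. That run does not show the power of the test here. Shared sequence was searched as exact windows of 50 bases, and coding sequences were aligned with Biopython 1.88.

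The 9 genes, the pathway lists and the tests were chosen with earlier results of these data known. Named genes are the 9, IGF2BP3, the highest and lowest fitted gene of each list, any list gene past the threshold, and the nearest genes by likeness. Markers and overlapping genes are named besides. Alternatives covered the pseudocount, filter, scaling, moderation, a replicate block, left-out libraries, limma-voom on the recovered reads, protein-coding genes alone, the threshold and, chosen after seeing the data, the length of the longest protein-coding transcript.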

Additional observations from a re-analysis of the deposited data

How the results depend on the processing

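The count of 0 among the 9 genes, and of 0 among the 68 pathway genes tested, held under each alternative named among the processing steps. For the 9 genes, another pseudocount, scaling, transcript length or limma-voom turned no sign, and the other alternatives with all 4 libraries leave the folds as they are by construction. Leaving out 1 library turned 6 of 36 signs. With the replicate number as a block, 0 of the 9 passed (smallest adjusted p 0.967 in limma), and the fold changes did not move. The numbers are not known to pair the libraries, and deviations of same-numbered libraries correlated at −0.0040. Over all genes, 10 passed, but 6 with upper quartile scaling, 2 among protein-coding genes and 0 without trend or without any 1 library. The lone library of a group is then assumed to vary like the other group. Limma-voom moved the median log2 fold change of all genes by 0.12 and called 11 genes. With 1 library left out the log2 fold change ranged from −2.65 to 0.17 for YTHDF2, −1.22 to 0.0060 for YTHDC1, −1.68 to 2.24 for FTO, −1.20 to 3.65 for ALKBH5 and −0.30 to 0.065 for PRRC2A. Among pathway genes it ranged from −1.39 to 4.04 for CBLL1, −3.33 to 1.69 for METTL16, −2.90 to 0.12 for NXF1, −1.35 to 0.47 for PRRC2B and −3.57 to 0.55 for RBM15. Low counts limit the precision of single values: FMR1, YTHDF3, ALKBH5, YTHDC2, YTHDF2 and FTO had 0 to 13 reads in their lowest library.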
